A study of Homo sapiens with 9 samples.

Results

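The 58 genes described here encode proteins that carry cells through mitosis: the kinases and cyclins that start it, the kinetochore and spindle checkpoint, the kinesin motors, and the proteins of chromosome structure and cytokinesis. They were taken from a named list of gene symbols, out of 19775 genes that the array's annotation pairs with probe sets naming a single gene. Each gene was read through its probe set with the highest mean over all 9 arrays. All 58 had such a probe set and passed the filter on low signals, and for all 58 the mean of the vector arrays alone was above that filter, so none passed only through a group in which it was high. The cells were MCF10A, a line of human breast epithelium that is immortal but forms no tumours and depends on added EGF for growth. They were profiled on 9 one-colour Affymetrix arrays, in 3 groups of 3 samples that the titles call biological replicates. Vector cells carried the pBabe retrovirus without an insert. The group labelled ERBB2 carried pBabe with ERBB2, a receptor tyrosine kinase of the EGF receptor family. The EGF group carried the empty virus and received EGF at 50 ng/ml for 2 h before harvest. Before infection all cells grew in 5% horse serum with EGF at 20 ng/ml, hydrocortisone, cholera toxin and insulin, and after it all were kept without EGF in 2% horse serum. How long infected cells were kept before harvest is not stated, nor whether each replicate was its own infection or the infected cells were 1 clone. The p-values therefore describe spread between samples that may share an infection.

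Entry into mitosis is driven by CDK1 bound to cyclins A and B, helped by the Polo and Aurora kinases. Chromosomes then attach to spindle microtubules through the kinetochore, and the spindle assembly checkpoint holds back the anaphase-promoting complex until every chromosome is attached. Most of these genes are silent in resting cells and are transcribed together late in the cell cycle, under the MuvB complex with MYBL2 and FOXM1, which works through a short promoter element called the CHR and through CCAAT boxes bound by NF-Y. In EGF-dependent mammary epithelial cells, removal of EGF stops the cell cycle, and cells that are given EGF again need many hours to reach mitosis.

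The introduced gene was checked before any comparison. Of 3 probe sets for ERBB2, the brightest read 184, 216 and 122 on the vector arrays and 114, 72.2 and 110.2 on the arrays labelled ERBB2 (log2 change -0.71, limma adjusted p = 0.00676), a dim one rose from a mean of 12.6 to 35.6 (0.89, adjusted p = 0.00882), and the remaining one was not called (0.10, adjusted p = 0.824). Whether the label holds cannot be read from these probe sets, because the labels do not say which species or how much of the gene was introduced, so the group is called "labelled ERBB2" throughout. The 5' control of ACTB relative to its 3' control, a measure of RNA length and labelling, was 0.737 ± 0.051 (SD, n = 3) on the arrays labelled ERBB2, 0.379 ± 0.055 on vector arrays and 0.443 ± 0.063 with EGF, and the 18S ribosomal RNA control at its 3' end read 12587 ± 826, 3380 ± 1330 and 2868 ± 673 in the same order. For these controls the exact two-sided permutation p between the arrays labelled ERBB2 and each other group was 0.1, the smallest that 3 against 3 allows. The same ratio for GAPDH was 0.869 ± 0.032 on the arrays labelled ERBB2, 0.847 ± 0.034 on vector arrays and 0.812 ± 0.045 with EGF, with exact two-sided permutation p of 0.5 against vector and 0.2 against EGF. Every result below for the arrays labelled ERBB2 runs with the ACTB and 18S controls, whose part in it was not tested. Of 10 epithelial markers 7 were tested, with summed signals between 31151 and 35946 in vector arrays, 27580 and 29570 on the arrays labelled ERBB2 and 32506 and 37509 with EGF, and on the arrays labelled ERBB2 2 were called higher, EPCAM (1.13) and KRT18 (0.83), and 3 lower, KRT14 (-4.00), KRT5 (-0.93) and CDH1 (-0.43). KRT5 read between 5809 and 12672 and SFN between 10730 and 17014 over the 9 arrays. Of 6 fibroblast markers 3 were tested and 2 were lower on the arrays labelled ERBB2, DCN (-1.80) and COL1A1 (-0.55), with summed signals of the list between 1357 and 1509 in vector arrays, 395 and 576 on the arrays labelled ERBB2 and 502 and 558 with EGF. Of 6 blood and endothelial markers 4 were tested and 1 was higher there, PECAM1 (1.27), with summed signals between 239 and 277, 259 and 333, and 261 and 290 in the same order. LUM, PDGFRB, COL3A1, PTPRC and VWF did not pass the filter, and the part of these markers in the results was not tested.

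Nearly the whole set was higher on the arrays labelled ERBB2 than on vector arrays. Of 58 genes 56 rose, 1 fell and 1 was not called (limma with Benjamini-Hochberg adjustment over all probe sets tested, adjusted p under 0.05). Among all 13726 genes tested the same way, 20.8% were called higher and 25.0% lower. The median log2 change of the 58 genes was 1.58, against -0.07 over all genes tested, of which the central 90% lay between -1.15 and 1.11. The one that fell was CDC25B, a phosphatase that activates CDK1, and the one that was not called was SPC24, a subunit of the NDC80 complex. With 2 h of EGF, in contrast, 12 of the 58 rose and 6 fell, with a median of 0.16. Among all genes 17.2% were called higher and 18.9% lower with EGF, with a median of -0.10, so the share that rose was close to that of all genes. For genes whose signal changed, a bulk measurement cannot tell a larger share of cycling cells from more RNA per cell.

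**Figure D1:**
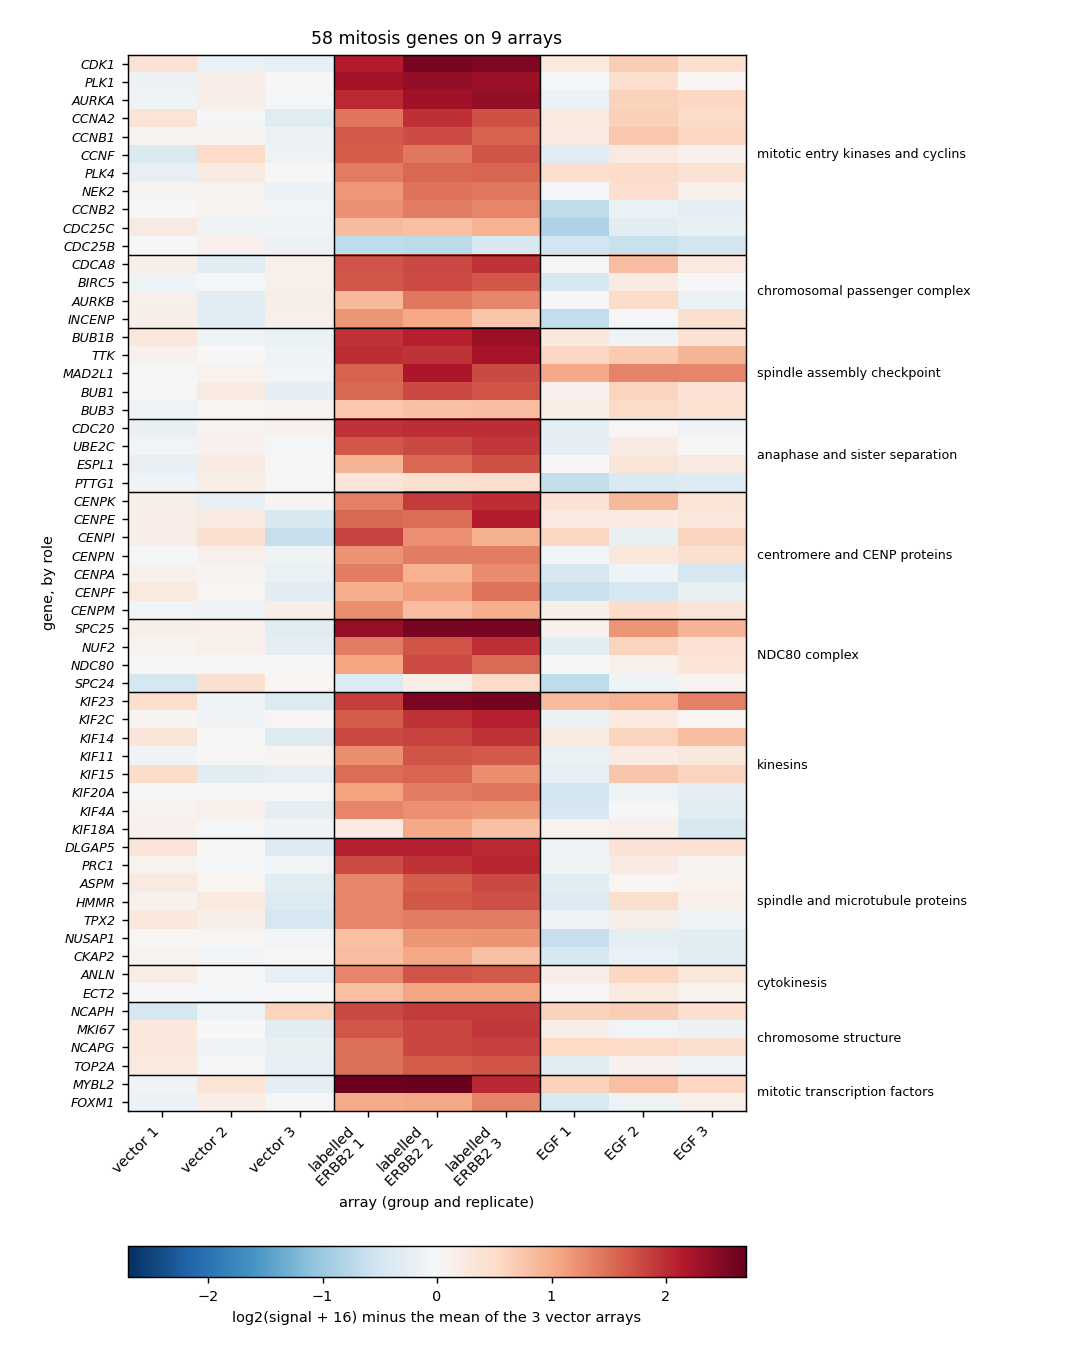
Heat map of the 58 genes (rows, grouped by role and ordered within each role by the change on the arrays labelled ERBB2) on the 9 arrays (columns). Colour gives log2(signal + 16) minus the mean of the 3 vector arrays, on a scale from -2.7 to 2.7; the 3 columns labelled ERBB2 are red for nearly all genes, CDC25B is blue there, and the EGF columns hold both colours.

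Array by array, the median of the 58 genes relative to the vector mean was 0.09, 0.03 and -0.09 on the vector arrays, 1.40, 1.65 and 1.69 on the arrays labelled ERBB2, and -0.06, 0.27 and 0.26 with EGF. The arrays labelled ERBB2 thus lay above all others, with 56, 57 and 57 genes above their vector mean. EGF replicate 1 was the lowest EGF array for 46 of the 58 genes, vector replicate 3 the lowest vector array for 33, and ERBB2 replicate 1 the lowest of its group for 43.

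The promoters of the set show what its members share beyond their roles. RefSeq promoter sequences of build GRCh38.p14, each from 250 bases before to 50 bases after a gene's start, were matched for 50 of the 58 genes, 7 of which had several starts and were read at the one listed first; AURKA, BIRC5, BUB3, TTK, UBE2C, CENPM, TPX2 and FOXM1 were not matched. The letters searched, on both strands, were the CHR forms TTTGAA and TTTAAA, the CCAAT box (CCAAT), and the E2F-type letters TTCCCGC or TTGGCGC. The form TTTAAA reads the same on both strands, and matches of different letters may share bases. TTTGAA was found in 33 of 50 promoters, or 66.0%, against 15.4% of the promoters of 27305 genes in the table. TTTAAA was found in 15, or 30.0%, against 12.3%, and CCAAT in 36, or 72.0%, against 35.7%. A CHR form together with CCAAT was found in 30, or 60%, against 9.49%. The E2F-type letters were found in 11, or 22.0%, against 9.33%. The table holds coding and noncoding genes, and base composition was not matched, so these shares are a description and a match is not a site.

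The matches also gathered near the start. Within the 100 bases before the start, TTTGAA lay in 19 of 50 promoters, or 38.0%, against 4.64% of all genes, and CCAAT lay in 30, or 60%, against 18.7%. Matches of TTTGAA began in the last 50 bases before the start more often than elsewhere: 10 promoters had one in the bin from -50 to -26 and 10 in the bin from -25 to -1. CCAAT matches were most frequent from -75 to -51, with 23 promoters. The median log2 change on the arrays labelled ERBB2 was 1.58 for the 33 genes with TTTGAA and 1.35 for the 17 without it, 1.67 and 1.56 with and without TTTAAA, 1.58 and 1.54 with and without CCAAT, and 1.19 and 1.60 with and without the E2F-type letters. With EGF the median was 0.16 with TTTGAA and 0.19 without it.

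**Figure D2:**
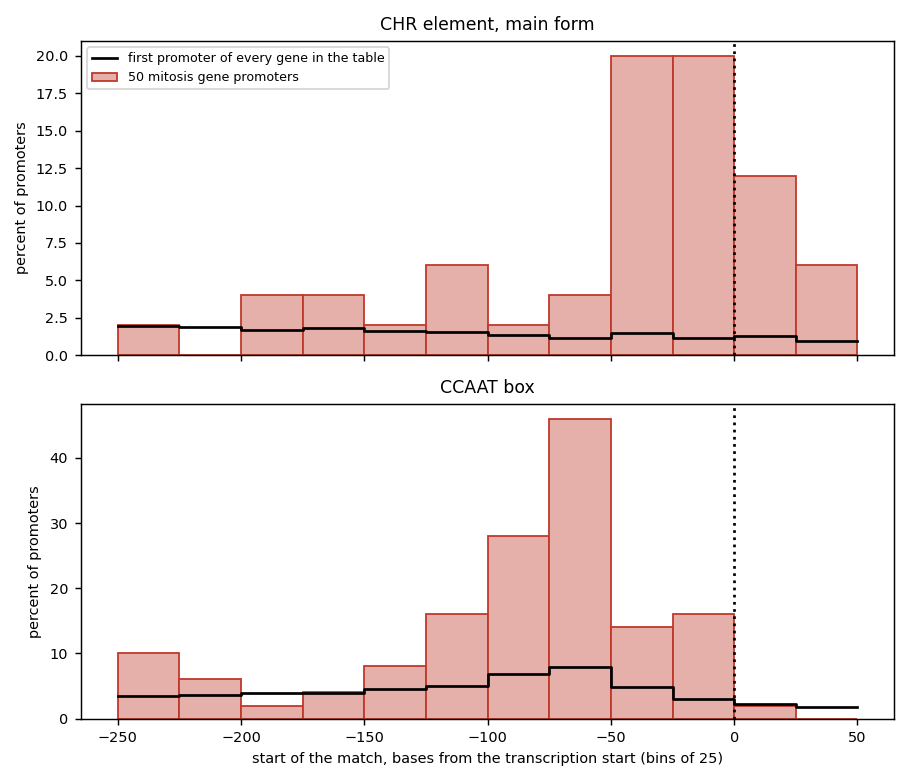
Position of the main CHR form (top) and of the CCAAT box (bottom) in promoters, as the percent of promoters with a match that begins in each bin of 25 bases, counted from the transcription start. Bars are the 50 matched mitosis gene promoters and the line is the first listed promoter of every gene in the table; the bars stand highest just before the start for the CHR (20.0% in each of the last 2 bins) and from -75 to -51 for CCAAT (46.0%).

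To show the letters in place, stretches before the start are given for genes with a CHR form there: those with the largest changes on the arrays labelled ERBB2 among the genes given array by array in mitotic entry, the checkpoint, the kinetochore and the kinesins. CCNB2 was added after its sequence was seen, because it carries evenly spaced boxes. Each runs 5′ to 3′ on the gene's strand and ends at the base before the start. Capitals mark a CHR form (TTTGAA or TTTAAA, or the reverse TTCAAA) or a CCAAT box (CCAAT or the reverse ATTGG). The genes lie at these places of GRCh38.p14: CDK1 at chr10:60778181-60778330, plus strand; PLK1 at chr16:23678739-23678888, plus strand; CCNB2 at chr15:59104996-59105145, plus strand; BUB1B at chr15:40160919-40161068, plus strand; SPC25 at chr2:168890431-168890680, minus strand; CENPA at chr2:26785906-26786055, plus strand; KIF23 at chr15:69414199-69414348, plus strand; KIF11 at chr10:92592980-92593129, plus strand.
CDK1: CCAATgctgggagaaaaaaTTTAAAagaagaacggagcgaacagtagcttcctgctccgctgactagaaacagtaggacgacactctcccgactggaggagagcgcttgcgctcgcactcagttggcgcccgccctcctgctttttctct
PLK1: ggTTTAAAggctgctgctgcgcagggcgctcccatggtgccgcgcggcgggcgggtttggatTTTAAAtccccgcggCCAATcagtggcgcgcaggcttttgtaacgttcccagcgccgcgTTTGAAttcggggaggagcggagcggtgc
CCNB2: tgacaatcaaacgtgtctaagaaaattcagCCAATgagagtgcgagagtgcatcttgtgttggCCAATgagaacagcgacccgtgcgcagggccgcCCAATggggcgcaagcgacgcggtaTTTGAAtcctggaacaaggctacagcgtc
BUB1B: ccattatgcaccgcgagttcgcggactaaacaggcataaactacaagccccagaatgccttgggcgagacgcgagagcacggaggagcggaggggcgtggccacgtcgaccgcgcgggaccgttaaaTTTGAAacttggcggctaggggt
SPC25: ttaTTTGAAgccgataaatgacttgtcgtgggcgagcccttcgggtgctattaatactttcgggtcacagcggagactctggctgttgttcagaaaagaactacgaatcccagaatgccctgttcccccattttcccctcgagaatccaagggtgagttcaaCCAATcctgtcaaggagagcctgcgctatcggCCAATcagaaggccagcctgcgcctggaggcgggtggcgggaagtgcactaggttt
CENPA: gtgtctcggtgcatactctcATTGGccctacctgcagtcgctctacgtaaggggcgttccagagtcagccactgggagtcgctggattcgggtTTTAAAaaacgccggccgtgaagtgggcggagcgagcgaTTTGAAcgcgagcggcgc
KIF23: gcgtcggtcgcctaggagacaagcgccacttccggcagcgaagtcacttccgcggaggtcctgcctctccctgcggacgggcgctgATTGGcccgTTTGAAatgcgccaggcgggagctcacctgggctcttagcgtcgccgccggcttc
KIF11: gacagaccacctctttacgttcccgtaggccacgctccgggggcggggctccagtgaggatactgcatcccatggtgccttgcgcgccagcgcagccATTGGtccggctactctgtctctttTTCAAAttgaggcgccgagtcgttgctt
CCNB2 shows the arrangement most plainly: CCAAT boxes begin at -120, -87 and -54, evenly spaced, and TTTGAA begins at -29. PLK1 has TTTGAA at the same position, -29, with a CCAAT box at -73. CENPA has TTTGAA at -18 and KIF11 at -28, and BUB1B has it at -23 with no CCAAT box in its window. SPC25 has one TTTGAA far out at -247 and another that begins at -3 and crosses the start, which is not shown. A pair of CCAAT boxes 31 to 34 bases apart was found in 5 of 50 promoters, or 10.0%, against 1.36% of all genes. CCNB2, shown for its spaced boxes, is among these 5.

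The group of mitotic entry kinases, cyclins and related genes holds 11 members. Of these, 10 rose on the arrays labelled ERBB2 and 1 fell (median log2 change 1.58). CDK1, the kinase that starts mitosis, read 436, 288 and 281 on the vector arrays, 1478, 2030.5 and 1948 on the arrays labelled ERBB2 and 400.1, 533 and 451 with EGF. The signals labelled ERBB2 lay far above both other groups, which overlapped each other. The log2 change from vector was 2.40 ± 0.15 (SE, limma adjusted p = 9.33e-11), and the 3 other CDK1 probe sets past the filter were also called higher. But 1 of these 3 had means of 2.9 in vector and 5.4 with EGF, below the filter. It was tested only because of its signal on the arrays labelled ERBB2, so it had to be higher there. CCNB1, cyclin B1, the partner of CDK1 at mitotic entry, read 569, 567 and 479 on the vector arrays, 1715, 1857 and 1658 on the arrays labelled ERBB2 and 634, 897 and 808 with EGF, a change of 1.67 ± 0.11 (SE, limma adjusted p = 2.3e-10) on the arrays labelled ERBB2. The groups did not overlap, with EGF between the others. CCNB2, cyclin B2, read 521, 541 and 489 on the vector arrays, 1243, 1374 and 1309 on the arrays labelled ERBB2 and 316, 451 and 427 with EGF, with no overlap between any of the groups. Its change was 1.31 ± 0.11 (SE, limma adjusted p = 7.6e-09). A dim CCNB2 probe set went the other way, from a mean of 34.3 to 17.1 (log2 change -0.61, adjusted p = 0.0503), and was not called. CCNA2, cyclin A2, which acts with CDK2 and then CDK1, read 178, 133 and 105 on the vector arrays, 395, 580.0 and 482 on the arrays labelled ERBB2 and 165, 222 and 199.8 with EGF, and rose by 1.71 ± 0.16 (SE, limma adjusted p = 5.07e-08); its dimmer probe set changed by 2.68. Vector and EGF arrays of CCNA2 overlapped, and the arrays labelled ERBB2 lay above both.

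The mitotic kinases rose with the cyclins. PLK1, the Polo kinase that promotes entry and spindle assembly, read 71.8, 96 and 81.6 on the vector arrays, 453, 494 and 471 on the arrays labelled ERBB2 and 81.1, 118 and 86.1 with EGF. Its change was 2.31 ± 0.14 (SE, limma adjusted p = 1.21e-10), and vector and EGF arrays overlapped. AURKA, the Aurora kinase of the centrosome and spindle poles, read 187, 226 and 196 on the vector arrays, 868, 1041 and 1115 on the arrays labelled ERBB2 and 179, 321 and 307 with EGF, a change of 2.22 ± 0.16 (SE, limma adjusted p = 8.18e-10). Its lowest array labelled ERBB2 was above its highest EGF array. Among the rest, PLK4, the kinase of centriole duplication (1.51), CCNF, an F-box protein of cyclin type (1.58), NEK2, a centrosome kinase (1.35), and CDC25C, a phosphatase that activates CDK1 (0.87), also rose. CDC25B was the exception and read 1124, 1225 and 992 on the vector arrays, 681, 675 and 816 on the arrays labelled ERBB2 and 771, 725 and 768 with EGF. All 3 vector signals lay above all 6 others, and the change was -0.61 ± 0.09 (SE, limma adjusted p = 2.95e-05) on the arrays labelled ERBB2 and -0.55 ± 0.09 (SE, limma adjusted p = 0.000173) with EGF.

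**Figure D3:**
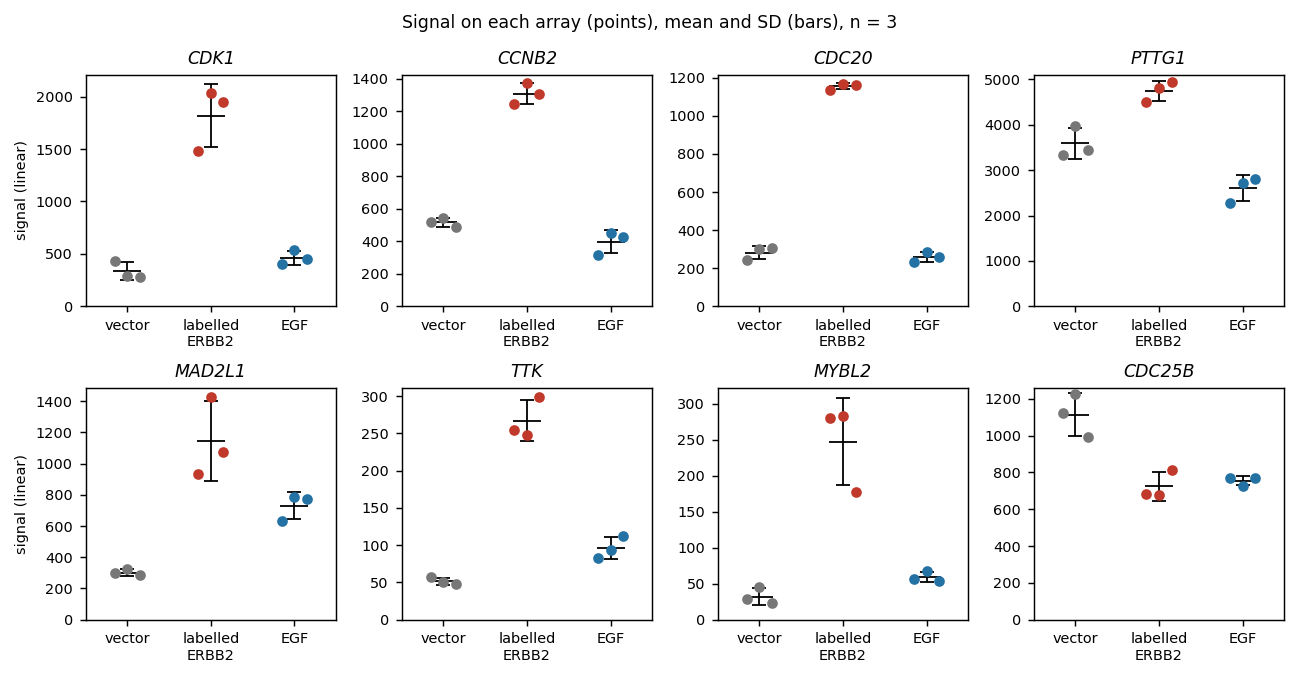
Linear signal of 8 genes on each array (points), with the mean and SD of each group of 3 (bars), for vector, labelled ERBB2 and EGF. CDK1, CCNB2, CDC20, PTTG1, MAD2L1, TTK and MYBL2 are highest on the arrays labelled ERBB2, and CDC25B is highest on vector arrays; MAD2L1, TTK and MYBL2 are also higher with EGF than in vector cells, whereas CCNB2 and PTTG1 are lower.

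The chromosomal passenger complex, which corrects faulty attachments and later guides cytokinesis, rose in all 4 measured members (median 1.45). AURKB, its kinase, read 65.1, 44.3 and 67 on the vector arrays, 119, 183 and 169 on the arrays labelled ERBB2 and 58.1, 88.1 and 49 with EGF. The arrays labelled ERBB2 stood above the others, and the change was 1.20 ± 0.20 (SE, limma adjusted p = 6.37e-05). CDCA8, the subunit borealin, read 69.6, 47.1 and 68.4 on the vector arrays, 235, 248 and 280.1 on the arrays labelled ERBB2 and 62.1, 121 and 77 with EGF, and changed most within the complex, by 1.81 ± 0.19 (SE, limma adjusted p = 1.44e-07). BIRC5, survivin, changed by 1.70. INCENP, the scaffold, was dim and read 27.8, 16.2 and 27 on the vector arrays, 74.3, 65.1 and 49.8 on the arrays labelled ERBB2 and 8.94, 21.8 and 37 with EGF; it rose by 1.0 ± 0.26 (SE, limma adjusted p = 0.00457). For AURKB, CDCA8 and INCENP the vector and EGF arrays overlapped each other and none reached the arrays labelled ERBB2.

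All 5 genes of the spindle assembly checkpoint rose on the arrays labelled ERBB2 (median 1.85). BUB1B, which encodes BubR1, an inhibitor of the anaphase-promoting complex, read 136, 97.4 and 92.7 on the vector arrays, 463, 515 and 598 on the arrays labelled ERBB2 and 135, 97.5 and 146 with EGF, a change of 2.13 ± 0.16 (SE, limma adjusted p = 1.2e-09). Vector and EGF arrays overlapped for this gene, and for BUB1 as well. BUB1, a kinase at the kinetochore, read 71.6, 85.8 and 56.6 on the vector arrays, 236, 283 and 266 on the arrays labelled ERBB2 and 77.8, 116 and 97.1 with EGF, a change of 1.68 ± 0.16 (SE, limma adjusted p = 5.04e-08). BUB3, which brings BUB1 and BubR1 to the kinetochore, read 1336, 1538 and 1571 on the vector arrays, 2446, 2557 and 2648 on the arrays labelled ERBB2 and 1702, 2106 and 1969 with EGF, with no overlap between the groups. BUB3 had the smallest change of the checkpoint, 0.78 ± 0.09 (SE, limma adjusted p = 3.43e-07). MAD2L1, which encodes MAD2, rose by 1.85 ± 0.13 (SE, limma adjusted p = 4.03e-10), and TTK, the kinase MPS1 at the top of the checkpoint, by 2.06 ± 0.15 (SE, limma adjusted p = 8.17e-10).

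Anaphase genes rose in 4 of 4 (median 1.59). CDC20, the activator of the anaphase-promoting complex that the checkpoint holds back, read 242, 299 and 304 on the vector arrays, 1138, 1165 and 1163 on the arrays labelled ERBB2 and 235, 287 and 261 with EGF. The 3 arrays labelled ERBB2 were nearly equal and the other groups overlapped, and the change was 1.98 ± 0.10 (SE, limma adjusted p = 1.14e-11). UBE2C, the ubiquitin-conjugating enzyme of that complex, changed by 1.79 and ESPL1, separase, which cuts cohesin, by 1.40. PTTG1, securin, which inhibits separase, read 3332, 3980.2 and 3456 on the vector arrays, 4502, 4809.8 and 4937 on the arrays labelled ERBB2 and 2288, 2726 and 2816 with EGF. The groups did not overlap, with EGF lowest, but the rise of 0.41 ± 0.08 (SE, limma adjusted p = 0.000582) was the smallest called in the set. Its probe set is of a kind marked as able to bind related transcripts, as are those of BUB3, CENPA and FOXM1.

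The centromere and CENP genes rose in 7 of 7 (median 1.32). CENPA, the histone H3 variant that marks centromeres, read 85.8, 82.8 and 68 on the vector arrays, 229, 166 and 212 on the arrays labelled ERBB2 and 54.4, 70.9 and 53 with EGF, a change of 1.19 ± 0.16 (SE, limma adjusted p = 5.52e-06). Vector and EGF arrays overlapped in a single array for CENPA, and also overlapped for CENPF and CENPM. CENPF, a large protein of the outer kinetochore, read 502, 422 and 334 on the vector arrays, 826, 927 and 1164 on the arrays labelled ERBB2 and 266, 293 and 360.2 with EGF, and rose by 1.19 ± 0.14 (SE, limma adjusted p = 1.13e-06). CENPK, of the constitutive centromere network, read 28.2, 17.6 and 25.2 on the vector arrays, 85.9, 131 and 141 on the arrays labelled ERBB2 and 35.4, 56.1 and 34 with EGF, the largest change of this group, 1.76 ± 0.22 (SE, limma adjusted p = 1.63e-06). All CENPK arrays with EGF were above vector and below those labelled ERBB2. CENPM, of the same network, read 50.3, 48.3 and 62.9 on the vector arrays, 151, 108 and 122 on the arrays labelled ERBB2 and 61.7, 81.6 and 72.5 with EGF and changed least, by 1.03 ± 0.17 (SE, limma adjusted p = 5.89e-05). CENPE, the kinetochore kinesin (1.73), CENPI (1.34) and CENPN (1.32) lay between them in size of change.

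Of the 4 subunits of the NDC80 complex, which binds the microtubule end, 3 rose. NDC80 itself read 52.5, 51.5 and 53.4 on the vector arrays, 128, 215 and 181 on the arrays labelled ERBB2 and 52.1, 58.9 and 71 with EGF, a change of 1.45 ± 0.18 (SE, limma adjusted p = 1.61e-06), and NUF2, its partner, changed by 1.68. SPC25 read 22.4, 21.7 and 12 on the vector arrays, 158, 188 and 187 on the arrays labelled ERBB2 and 21.1, 63 and 49.1 with EGF. The change of SPC25, 2.49 ± 0.24 (SE, limma adjusted p = 4.65e-08), was the largest of the 58, from low signals for which the added 16 understates a change. SPC24, the partner of SPC25, read 56.1, 119 and 89.1 on the vector arrays, 62.5, 97.6 and 128 on the arrays labelled ERBB2 and 46.5, 76.4 and 90.7 with EGF, and the 3 groups overlapped. Its change was 0.11 ± 0.25 (SE, limma adjusted p = 0.77), with a 95% interval from -0.41 to 0.63, and the changes of the other 3 subunits lay outside that interval.

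All 8 kinesins rose (median 1.49). KIF23, which bundles the central spindle, read 46, 26.2 and 19.1 on the vector arrays, 149, 247 and 256 on the arrays labelled ERBB2 and 65.1, 70.2 and 100 with EGF, a change of 2.34 ± 0.22 (SE, limma adjusted p = 5.3e-08). Its groups did not overlap, with EGF in the middle. KIF11, the motor that pushes the spindle poles apart, read 96.7, 107 and 112 on the vector arrays, 273, 378 and 364 on the arrays labelled ERBB2 and 91.6, 124 and 134 with EGF, a change of 1.53 ± 0.15 (SE, limma adjusted p = 7.76e-08). For KIF11 the arrays labelled ERBB2 were higher than all others, which overlapped. KIF18A, which damps chromosome movement, read 59.3, 52.4 and 49.5 on the vector arrays, 65.4, 126 and 105 on the arrays labelled ERBB2 and 58.7, 60.5 and 35.6 with EGF, and its smallest value labelled ERBB2 was close to the vector arrays. Its rise of 0.68 ± 0.21 (SE, limma adjusted p = 0.0146) lost its call without ERBB2 replicate 2 or without ERBB2 replicate 3, with adjusted p between 0.00194 and 0.0987 over 22 alternatives. KIF2C (1.89), a microtubule depolymerase, KIF14 (1.86) and KIF20A (1.30), both of cytokinesis, KIF4A (1.25), a chromosome-bound motor, and KIF15 (1.44), a spindle motor, rose as well.

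Spindle and microtubule proteins rose in 7 of 7 (median 1.58). TPX2, which activates AURKA and nucleates microtubules, read 263, 238 and 152 on the vector arrays, 556, 583 and 583 on the arrays labelled ERBB2 and 196, 238 and 197 with EGF, a change of 1.37 ± 0.15 (SE, limma adjusted p = 2.57e-07). For TPX2 and DLGAP5 the vector and EGF arrays overlapped below those labelled ERBB2. DLGAP5, which stabilizes kinetochore fibres, read 163, 125 and 94.9 on the vector arrays, 578, 577 and 556 on the arrays labelled ERBB2 and 111, 168 and 169.5 with EGF, the largest change here, 2.06 ± 0.16 (SE, limma adjusted p = 3.31e-09). NUSAP1, a microtubule-bundling protein, read 502, 501 and 458 on the vector arrays, 865, 1126 and 1142 on the arrays labelled ERBB2 and 309, 402 and 396 with EGF, with no overlap between the groups and EGF lowest. It rose by 1.07 ± 0.12 (SE, limma adjusted p = 3.13e-07) on the arrays labelled ERBB2. CKAP2 read 259.9, 228 and 238 on the vector arrays, 441, 514 and 429.8 on the arrays labelled ERBB2 and 174, 213 and 191 with EGF, the smallest change of this group, 0.89 ± 0.11 (SE, limma adjusted p = 2.7e-06), and the same order of groups; a dim probe set of it was not called (0.26, adjusted p = 0.462). PRC1 (1.93), which crosslinks the central spindle, ASPM (1.58), a spindle-pole protein, and HMMR (1.58) also rose.

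Both cytokinesis genes and all 4 of chromosome structure rose. ANLN, anillin, a scaffold of the contractile ring, read 276, 240.1 and 200.4 on the vector arrays, 614, 808 and 777 on the arrays labelled ERBB2 and 269, 354 and 296 with EGF, a change of 1.56 ± 0.13 (SE, limma adjusted p = 8.64e-09). ECT2, which activates RhoA at the cleavage plane, read 224, 215 and 223 on the vector arrays, 397, 477 and 482 on the arrays labelled ERBB2 and 225, 268 and 235 with EGF, a change of 0.98 ± 0.11 (SE, limma adjusted p = 5.23e-07). The 3 groups of ECT2 did not overlap, whereas vector and EGF arrays overlapped for ANLN and TOP2A. TOP2A, the topoisomerase that untangles chromosomes, read 317, 257 and 224 on the vector arrays, 763, 849 and 892 on the arrays labelled ERBB2 and 210.4, 288 and 245 with EGF, a change of 1.60 ± 0.13 (SE, limma adjusted p = 3.99e-09). MKI67, the proliferation marker Ki-67, which coats mitotic chromosomes, read 164, 132 and 106 on the vector arrays, 457, 500.5 and 537 on the arrays labelled ERBB2 and 150.1, 125 and 117 with EGF. MKI67 changed by 1.79 ± 0.14 (SE, limma adjusted p = 3.36e-09), and its vector and EGF arrays overlapped. NCAPH, a subunit of condensin I, was dim in vector cells and read 3.48, 8.39 and 25.2 on the vector arrays, 77, 83.1 and 84.2 on the arrays labelled ERBB2 and 25.6, 26.7 and 20.2 with EGF, a change of 1.85 ± 0.25 (SE, limma adjusted p = 5.75e-06); NCAPG, of the same complex, changed by 1.71. One vector array of NCAPH lay among the EGF arrays and the other 2 far below.

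The 2 transcription factors both rose. MYBL2, which encodes B-MYB, read 28.3, 44.8 and 23.2 on the vector arrays, 281, 283 and 177 on the arrays labelled ERBB2 and 57, 67.5 and 53.3 with EGF, and the groups did not overlap. Its change of 2.45 ± 0.20 (SE, limma adjusted p = 5.44e-09) was among the largest of the set. FOXM1 read 66.2, 88.4 and 74.1 on the vector arrays, 168, 173 and 216 on the arrays labelled ERBB2 and 52.6, 67.9 and 84.5 with EGF, a smaller change of 1.13 ± 0.17 (SE, limma adjusted p = 1.87e-05), and its vector and EGF arrays overlapped.

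Of the 58 genes, 30 had 47 further probe sets past the filter. On the arrays labelled ERBB2, 40 of these 47 were called higher, 7 were not called and none was called lower. Among the 40, probe sets of CDK1, AURKB, ECT2, KIF23 and PLK4 had vector means of 2.9, 5.3, 7.6, 8.5 and 10.1. These lie below the filter, a signal of 10.6, so these probe sets passed only through groups in which they were high and had to differ. With EGF against vector 6 were called higher, 1 was called lower and 40 were not called. Between the arrays labelled ERBB2 and EGF, 37 were called higher and 10 were not called. Of these 37, probe sets of CDK1, ECT2 and BUB1 had EGF means of 5.4, 5.3 and 4.4, also below the filter.

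**Figure D4:**
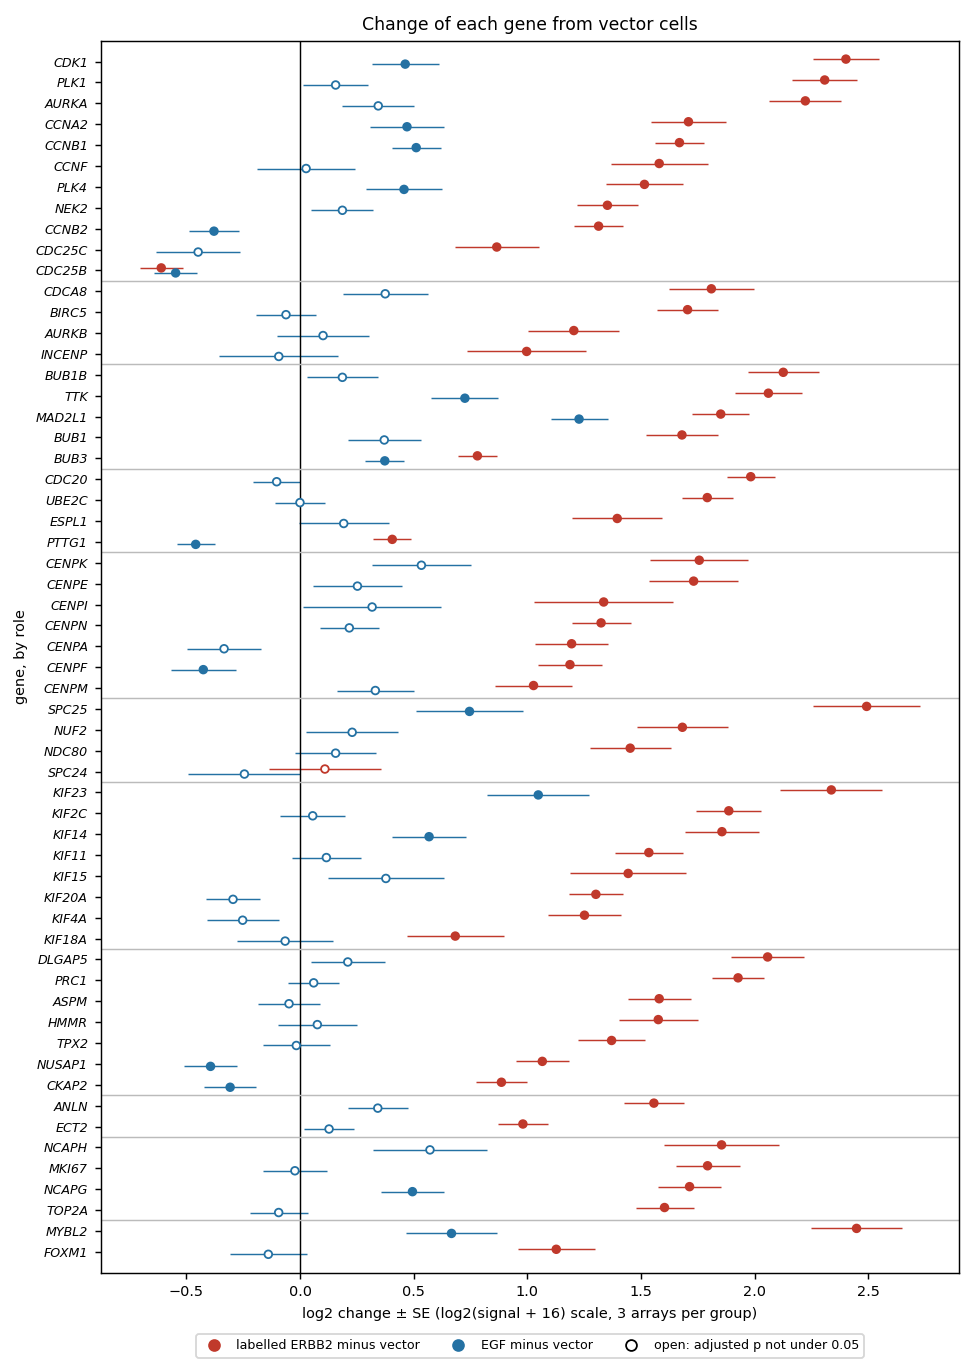
Log2 change ± SE from vector cells for each of the 58 genes, grouped by role, for the arrays labelled ERBB2 (red) and for EGF (blue), 3 arrays per group; filled points had an adjusted p under 0.05. Red points lie between -0.61 and 2.49 and are filled for all genes but SPC24, and blue points lie between -0.55 and 1.23, 18 of them filled.

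After 2 h of EGF the genes went in both directions. Of 58 genes 12 rose, 6 fell and 40 were not called, beside 17.2% of all genes called higher and 18.9% called lower, so the share that rose was close to that of all genes and the share that fell was smaller. The 12 that rose were MAD2L1, KIF23, SPC25, TTK, MYBL2, KIF14, CCNB1, NCAPG, CCNA2, CDK1, PLK4 and BUB3, and the 6 that fell were CDC25B, PTTG1, CENPF, NUSAP1, CCNB2 and CKAP2, none of which was called lower with equal array medians. The median signal of the EGF arrays was the lowest of the 3 groups, between 15.6 and 16.9, against 19.9 to 20.2 in vector arrays. Scaling all arrays to one median moved the median change of all probe sets from -0.11 to 0.11, the rises among all calls from 44.8% to 78.0%, and the counts for the set from 12 higher and 6 lower to 26 and 0. Small changes with EGF are therefore relative to the authors' scaling.

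The checkpoint gene MAD2L1 changed most with EGF. It read 298, 324 and 283 on the vector arrays, 935, 1428 and 1072 on the arrays labelled ERBB2 and 629, 786 and 774 with EGF, and the groups did not overlap. The change with EGF was 1.23 ± 0.13 (SE, limma adjusted p = 2.93e-07), and of its 2 other probe sets past the filter 1 was called as well (1.01) and 1 was not (0.35, adjusted p = 0.248). TTK read 56.8, 50.7 and 47.6 on the vector arrays, 255, 247 and 298 on the arrays labelled ERBB2 and 83.3, 94 and 112 with EGF, again in 3 separate groups, and rose by 0.73 ± 0.15 (SE, limma adjusted p = 0.000798). MAD2L1, TTK and CCNB1 (0.51, adjusted p = 0.00123) kept their call under all 22 alternatives. KIF23 rose by 1.05 ± 0.22 (SE, limma adjusted p = 0.00128) and kept its call except with its dimmer probe set, with adjusted p between 0.000121 and 0.496 over the alternatives.

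Other rises with EGF were smaller, and how many were called moved with single arrays. MYBL2 changed by 0.67 ± 0.20 (SE, limma adjusted p = 0.0155), SPC25 by 0.75 ± 0.24 (SE, limma adjusted p = 0.0222), CDK1 by 0.46 ± 0.15 (SE, limma adjusted p = 0.022) and CCNA2 by 0.47 ± 0.16 (SE, limma adjusted p = 0.0357); CDK1 and CCNA2 each lost their call in 6 of 22 alternatives, over which the adjusted p ran from 0.000557 to 0.132 and from 0.002 to 0.202. PLK4 (0.46, adjusted p = 0.0467) lost its call under 14 of 22, SPC25 under 6, KIF14 (0.57) under 4, MYBL2 and NCAPG (0.49) under 3 each and BUB3 (0.37) under 1, the fit without a variance trend. No further probe set of CDK1, PLK4, KIF14 or NCAPG past the filter was called with EGF. Those of CCNA2 and CCNB1 and some of BUB3 were called higher. Without vector replicate 3, 6 genes rose and 5 fell. Without EGF replicate 1, 17 rose and 2 fell. Without EGF replicate 2 the counts were 7 and 6, and without EGF replicate 3 they were 8 and 6.

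Among the falls with EGF, PTTG1 changed by -0.46 ± 0.08 (SE, limma adjusted p = 0.000292), and every EGF array lay below every vector array. CDC25B and PTTG1 lost their call under 1 of 22 alternatives each, equal array medians (adjusted p up to 0.0656 and 0.252, and at least 8.07e-05 and 0.000101). CCNB2 changed by -0.38 ± 0.11 (SE, limma adjusted p = 0.0127), NUSAP1 by -0.39 ± 0.12 (SE, limma adjusted p = 0.0143) and CENPF by -0.43 ± 0.14 (SE, limma adjusted p = 0.0296), also with EGF arrays below vector arrays except for CENPF. CENPF lost its call under 10 of 22 alternatives, among them without vector replicate 1 or 2 and without EGF replicate 1 or 2, and once with its direction turned, CCNB2 under 5 and NUSAP1 under 3, both among others without EGF replicate 1. The call of CKAP2 (-0.31, adjusted p = 0.0484) ended under 15 of 22 alternatives. NUSAP1 was the only gene with a further probe set called lower (-0.50, adjusted p = 0.0108).

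Some central mitotic genes were near their vector level after EGF. UBE2C changed by 0.00 with EGF (95% interval -0.23 to 0.23), CDC20 by -0.10 (-0.32 to 0.12), MKI67 by -0.02 (-0.32 to 0.27), TPX2 by -0.02 (-0.32 to 0.29) and TOP2A by -0.09 (-0.36 to 0.17). Each of these intervals excludes the change of the same gene on the arrays labelled ERBB2. The dimmer probe sets of MKI67 changed with EGF by -0.06, 0.27 and 0.64 (limma adjusted p = 0.0546 for the last), and none was called. AURKA (0.34, adjusted p = 0.117), BUB1 (0.37, adjusted p = 0.0934) and ANLN (0.34, adjusted p = 0.057) were not called with EGF, but were called higher under 4, 5 and 7 of 22 alternatives in that order, in each case also with equal array medians and without EGF replicate 1.

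The direct comparison of the arrays labelled ERBB2 with the EGF arrays tested that difference. These groups differ both in the virus and in the EGF given for 2 h, and what stimulates the cells cannot be told apart from how long it acts. Of 58 genes 56 were higher on the arrays labelled ERBB2 and none was lower, against 12.8% and 16% of all genes; the median difference was 1.32 for the set and 0.01 for all genes. The largest differences were in PLK1 (2.15 ± 0.14, SE, limma adjusted p = 1.26e-09) and CDC20 (2.08 ± 0.10, SE, limma adjusted p = 1.89e-11), followed by CDK1 (1.94), BUB1B (1.94), AURKA (1.88) and PRC1 (1.87). The smallest called were in BUB3 (0.41 ± 0.09, SE, limma adjusted p = 0.00134) and MAD2L1 (0.62 ± 0.13, SE, limma adjusted p = 0.000942). CDC25B differed by -0.06 (95% interval -0.26 to 0.14) and SPC24 by 0.35 (-0.16 to 0.87), neither called. The call of CENPI (1.02 ± 0.30, SE, limma adjusted p = 0.0184) was lost in 7 of 22 alternatives, among them without ERBB2 replicate 1 or EGF replicate 2 (adjusted p from 0.00789 to 0.274), and that of KIF18A (0.75 ± 0.21, SE, limma adjusted p = 0.0133) without ERBB2 replicate 2, ERBB2 replicate 3 or EGF replicate 3, with adjusted p between 0.0022 and 0.0896. With equal array medians, where the rises among all calls went from 48.7% to 23.7%, 55 genes were higher and CDC25B was called lower.

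**Figure D5:**
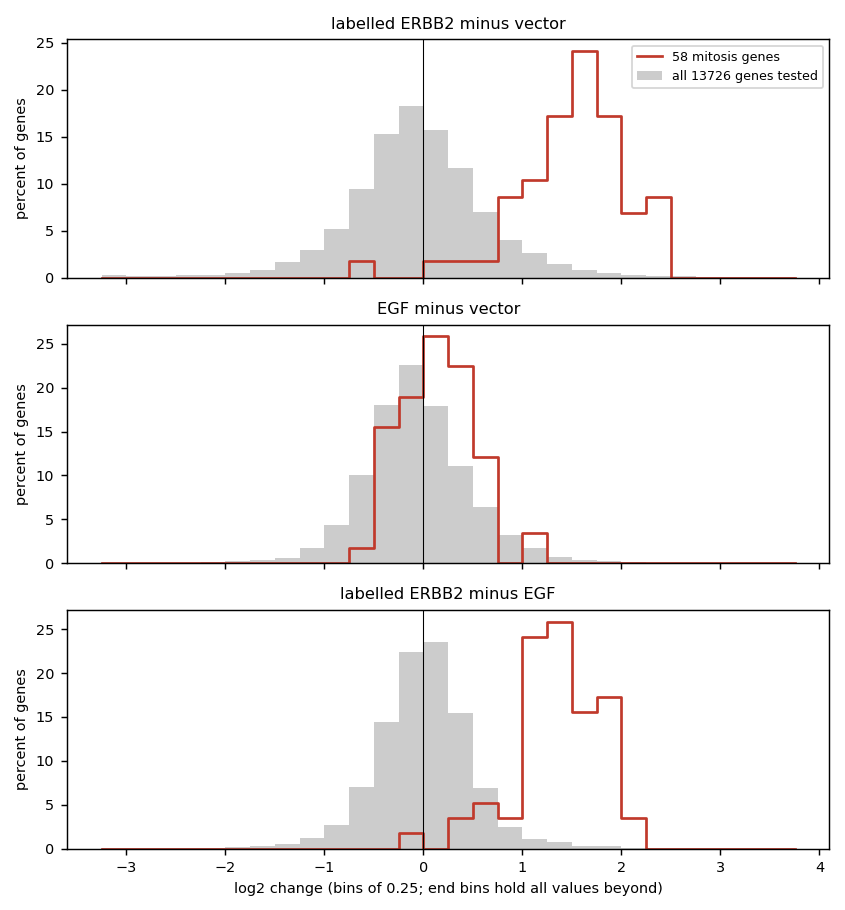
Distribution of log2 changes in bins of 0.25 for all 13726 genes tested (grey bars) and for the 58 mitosis genes (red line), as percent of genes, in the 3 comparisons. The red line lies to the right of the grey bars in the top and bottom panels, with medians of 1.58 and 1.32, and over them in the EGF panel, with a median of 0.16.

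Other genes of mitosis and its control, from lists chosen for their known roles, were read the same way. Their counts stand beside the shares of all genes tested, 20.8% called higher and 25.0% lower on the arrays labelled ERBB2. With EGF these shares were 17.2% and 18.9%. The EGF rises in the kinetochore and the spindle lists below were close to the share of all genes. Of 26 tested kinetochore and centromere genes outside the set, 21 rose on the arrays labelled ERBB2 and none fell (median 1.21), with CENPU (2.26), ZWINT (2.11), HJURP, the chaperone of CENPA (2.11), and SPDL1 (2.04) changing most; with EGF 5 rose and 3 fell. Of 15 regulators of entry and exit all 15 rose (median 1.85), led by MELK (2.65), CDC25A, the phosphatase of the G1/S step (2.58), PKMYT1, a kinase that inhibits CDK1 (2.27), and CDCA2 (2.10). With EGF 10 of these 15 rose and none fell (median 0.61), CDC25A by 1.87 ± 0.25 (SE, limma adjusted p = 1.06e-05). Of 18 further spindle, motor and cytokinesis genes 15 rose and 2 fell (median 1.02), among them CKAP2L (2.33), DEPDC1 (1.83), TACC3 (1.81) and KIF18B (1.73). The 2 falls were in KIFAP3, a subunit of the transport motor kinesin-2 (-0.92), and NUMA1, a spindle-pole protein also present in interphase nuclei (-0.66); with EGF 4 of the 18 rose and 2 fell.

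The anaphase-promoting complex, whose core is present through the cell cycle, had a small median change over its subunits and the activator FZR1. Of 14 tested members 5 rose and none fell (median 0.13), with CDC27 (0.86), ANAPC7 (0.83), CDC26 (0.58) and FZR1, the activator of late mitosis and G1 (0.49), changing most. With EGF 4 rose and 1 fell. Of 17 cohesin and condensin genes 11 rose and 2 fell (median 0.85), with CDCA5, sororin (2.00), NCAPG2 (1.95), SGO2, a protector of cohesin (1.70), and SMC2 (1.62) changing most and the cohesin subunit STAG2 (-0.55) and the cohesin regulator PDS5A (-0.29) lower. With EGF 4 rose and 2 fell.

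Among 16 regulators of the E2F, RB and DREAM network 9 rose and 4 fell (median 0.61). The repressive factor E2F7 (2.20), itself an E2F target, and the MuvB subunit LIN9 (0.97) rose. E2F8 (1.64), of the same kind as E2F7, is also counted among the 9, but its vector mean is below the filter and it was tested only because of its signal on the arrays labelled ERBB2, so it had to differ. The falls were in RBL2, p130, the pocket protein of the repressive DREAM complex (-1.19 ± 0.11, SE, limma adjusted p = 3.18e-08), in CDKN1A, the CDK inhibitor p21 (-0.82), in the MuvB subunit LIN37 (-0.69) and in RB1 (-0.57). With EGF 5 of the 16 rose and 2 fell, RBL2 by -0.63 ± 0.11 (SE, limma adjusted p = 0.000164) and CDKN1A by -1.95 ± 0.12 (SE, limma adjusted p = 2.54e-10).

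Genes of DNA replication, which act earlier in the cycle, give the nearest comparison. On the arrays labelled ERBB2 34 of 36 tested rose and 1 fell (median 1.92), beside 56 of 58 mitosis genes (median 1.58). With EGF 22 of the 36 rose and none fell (median 0.52), beside 12 rises and 6 falls among 58 mitosis genes (median 0.16). Of the replication genes, MCM10, CDC45 and GINS4 passed the filter only through the groups in which they were high, and are in both counts of rises. The difference between these 2 lists was not tested. With equal array medians the EGF counts were 23 higher and 0 lower for replication genes, 12 and 0 for the further kinetochore genes, 9 and 1 for the spindle, motor and cytokinesis genes, 12 and 0 for the regulators of entry and exit, 8 and 0 for the anaphase-promoting complex, 9 and 2 for cohesin and condensin, and 7 and 2 for the E2F network. Between the arrays labelled ERBB2 and EGF, 35 replication genes were higher and 1 was lower (median 1.10).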

How the data were processed

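Gene expression was measured in 9 MCF10A samples, 3 per group, grouped by their titles. Per the labels, the authors ran 1 Affymetrix array per sample and made MAS5 signal intensities, 1 per probe set and array, on a linear scale; no version is given. The deposited values hold the same trimmed mean (100.03) on every array, so a change in total RNA per cell is not visible. Each of the 54675 probe sets was named from the platform annotation; 41097 named 1 gene, 1801 several and 11777 none. Here 62 control probe sets were left out and log2(signal + 16) was taken. Those whose mean exceeded the 40th percentile were kept (32768 probe sets, mean log2 value above 4.73). Group means were fitted over all 9 arrays (6 residual degrees of freedom) with limma 3.58.1 (lmFit, eBayes with trend) in R 4.3.3, and p-values were adjusted by Benjamini-Hochberg over all kept probe sets. Fold changes are on the log2(signal + 16) scale, which understates those of dim probe sets. The number of arrays limits the precision.

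A gene was read through its brightest single-gene probe set. Values on every array are given for 17 central genes, for the largest and smallest change of each role from vector to the arrays labelled ERBB2, and for genes called lower in any comparison; of other lists, up to 4 called genes with the largest change and the falls where at most 4. MAD2L1 and TTK are also given on every array, outside these rules. The genes, lists and rules were chosen with earlier results of these data known. Promoter letters come from a RefSeq table. Deviations of arrays with the same replicate number from their group means correlated between -0.03 and 0.02, none above 0.1. Arrays with the same number thus showed no shared deviation, but what the numbers mark is not stated. The alternatives tried changed the filter, added constant, array scaling, variance model, array weights, samples in the fit, replicate block, probe set per gene and each array.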

Additional observations from a re-analysis of the deposited data

How the results depend on the processing

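The counts on the arrays labelled ERBB2 against vector stayed between 54 and 56 higher and at 1 lower over 22 alternatives, and against EGF between 50 and 56 higher; 1 alternative, the brightest probe set by mean linear signal, was chosen after seeing the data. With an added constant of 64 in place of 16 the median change against vector was 1.23 and against EGF 1.08; with a constant of 1 the latter was 1.52. With equal array medians, 26 genes rose and 0 fell with EGF (median 0.41), and the difference between the arrays labelled ERBB2 and EGF had 1 gene lower and a median of 1.15. Without a variance trend 5 genes rose and 2 fell with EGF. With each gene read as the average of its probe sets, 3 fell with EGF. The same number fell when genes with several probe sets were read through their next brightest one. In that setting the 27 genes with 1 probe set kept it, and 57 genes were tested. Leaving out 1 array at a time gave 6 to 17 rises and 2 to 6 falls with EGF. With the next brightest probe set, CCNB2 changed direction against vector (-0.61, adjusted p = 0.0503) and against EGF (-0.15, adjusted p = 0.711), BUB3 against EGF (-0.012, adjusted p = 0.937) and CENPF with EGF (0.10, adjusted p = 0.765). The cause of these changes was not tested. Of 58 genes, 55 kept their call (higher, lower or not called) under every alternative that tested them on the arrays labelled ERBB2 against vector. The number was 26 for EGF against vector and 50 for the arrays labelled ERBB2 against EGF. A gene that was not called could change direction and still be counted. The change of UBE2C with EGF ran from -0.11 to 0.29. That of SPC24 on the arrays labelled ERBB2 ran from -0.13 to 0.34 over the 21 alternatives that tested it. With the replicate number as a block, 56 rose and 1 fell on the arrays labelled ERBB2, and 12 rose and 5 fell with EGF. In the same fit 56 were higher and 0 lower on the arrays labelled ERBB2 than with EGF. The numbers are shared in the labels, but arrays with the same number showed no shared deviation. Among the 58 genes the standard error against vector was largest for CENPI (0.30) and INCENP (0.26).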
